A study of Mus musculus with 19 samples.

Results

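The glycine cleavage system is encoded by Gcsh, Gldc, Amt and Dld, and its CpG sites were followed through 3 comparisons of mouse liver methylation. A site was counted when it lay inside one of these genes or within 2 kb of either end. This gave 15 listed sites out of 12334 entries at 8525 different positions in the authors' deposited tables: 13 in Gcsh, 2 in Gldc and 0 in Amt and Dld. The genes were selected on the methylation differences of SAMe-treated knockout against wild-type liver, in which Gcsh carried a dense run of gains, so the presence, size and sign of that run are described here and not tested.

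The groups were 6 Mat1a knockout (KO) mice given placebo, 5 Mat1a KO mice supplemented with S-adenosylmethionine (SAMe) and 8 Mat1a wild-type (WT) mice without treatment, all 10 months old. The series title gives 8 weeks of treatment. Methylation was read by reduced-representation bisulfite sequencing of liver DNA cut with MspI and TaqαI, a method that samples CpG-rich fragments. Because WT mice received neither placebo nor SAMe, genotype and treatment cannot be told apart in the WT comparisons. The tables list sites with an absolute difference above 20 percentage points, each with a p-value and a q-value. They hold no level, coverage or value per animal, so depth is unknown and no difference below carries a spread between animals. Differences were read as KO minus WT and as SAMe minus placebo, an order the tables do not state. If the authors subtracted the other way, every direction given here turns round.

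The glycine cleavage system is a mitochondrial enzyme complex, most active in liver, that breaks glycine down to carbon dioxide and ammonia and passes the remaining carbon to tetrahydrofolate. Gldc is the decarboxylase that starts the reaction, Gcsh is the H protein whose lipoyl arm carries the intermediate, Amt is the aminomethyltransferase that hands the carbon to folate, and Dld is the dihydrolipoamide dehydrogenase that reoxidises the arm. Folate-bound carbon can return homocysteine to methionine, from which Mat1a makes SAMe in hepatocytes, and the liver enzyme Gnmt uses SAMe to methylate glycine.

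The Gcsh gene (chromosome 8, 116981967 to 116993498, minus strand, mm10) begins in a CpG-rich stretch. The 300 bases from 250 before to 50 after its start are shown because the run of gains begins 10 bases beyond their downstream end. The Gldc window is shown for contrast, since the Gldc sites lay far from the start. Both are printed on the gene's own strand from RefSeq (GRCm38.p6, which shares mm10 coordinates), with each CpG in capitals. The Gcsh window is chr8:116993449-116993748 and the Gldc window is chr19:30175392-30175691.
Gcsh: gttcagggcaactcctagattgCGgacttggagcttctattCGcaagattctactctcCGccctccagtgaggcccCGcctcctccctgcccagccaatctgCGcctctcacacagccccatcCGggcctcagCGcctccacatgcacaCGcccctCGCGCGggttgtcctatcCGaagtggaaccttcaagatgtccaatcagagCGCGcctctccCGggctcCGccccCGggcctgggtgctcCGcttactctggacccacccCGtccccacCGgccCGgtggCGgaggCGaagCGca
Gldc: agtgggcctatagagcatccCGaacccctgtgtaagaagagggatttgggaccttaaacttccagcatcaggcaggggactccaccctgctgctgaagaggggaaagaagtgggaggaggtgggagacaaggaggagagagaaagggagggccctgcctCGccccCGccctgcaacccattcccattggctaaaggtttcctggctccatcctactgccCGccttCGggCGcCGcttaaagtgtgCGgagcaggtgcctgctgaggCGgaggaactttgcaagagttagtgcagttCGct

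The Gcsh window held 24 CpG dinucleotides and was 66.3% G or C. Fewer CpGs were found in 80.0% of all 32851 windows of this length in the RefSeq table, whose median was 7. The windows of the other members held 18 CpGs for Dld, 10 for Gldc and 7 for Amt. MspI cuts at CCGG, which reads the same on both strands and contains a counted CpG. It occurred at 5 places in the Gcsh window, at 1 place each in the Amt and Dld windows and at 0 in the Gldc window, and 52.8% of all windows hold it. TCGA, the TaqαI sequence, also the same on both strands, occurred in none of the 4 windows and in 22.0% of all windows. No listed site of any comparison fell inside a start window of the 4 genes.

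**Figure D1:**
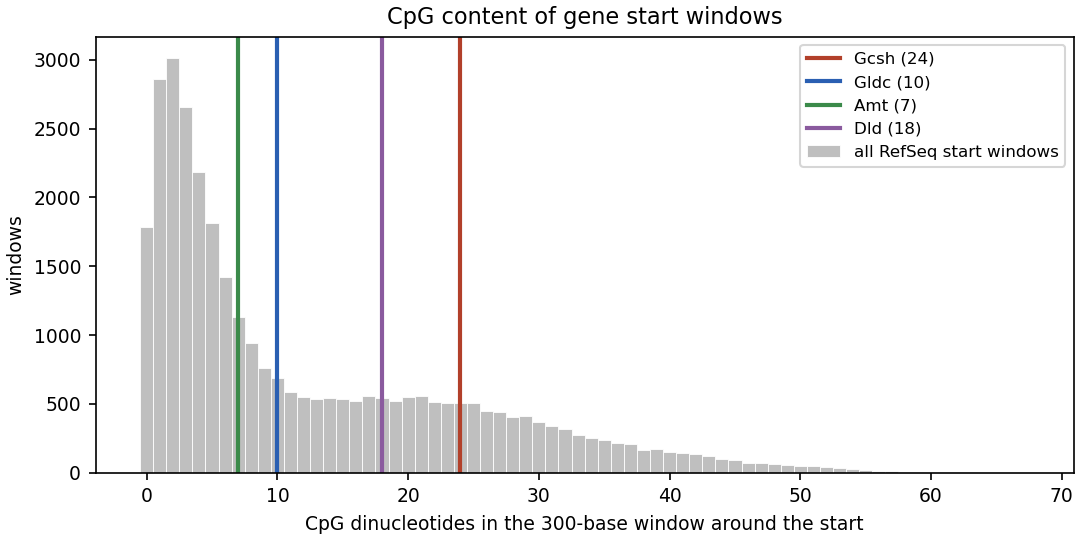
Number of CpG dinucleotides (x axis) in the 300-base window around each RefSeq gene start, with the number of windows on the y axis. Coloured lines mark Gcsh at 24, Dld at 18, Gldc at 10 and Amt at 7 CpGs, against a median of 7 over all windows.

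Gcsh methylation was higher in KO SAMe than in WT liver at 13 CpG sites packed into 129 bp (chromosome 8, 116993311 to 116993439), all inside the gene and 59 to 187 bases downstream of its start. The run covered 1.12% of the gene's length, and no other listed site lay in Gcsh or its flanks. The mean difference in the authors' deposited table was 24.4 percentage points, with an SD of 2.22 over sites, which describes neighbouring sites and not animals. The annotation used here holds no exons, so exon and intron were not assigned. In bulk liver DNA, a shift in the mix of cells and a change within a cell type cannot be told apart.

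The sites fell into 2 stretches by strand. On the plus strand, 10 sites lay within 45 bp, 143 to 187 bases from the start, and their differences in the authors' deposited table ran from 23.8 to 27.1 (mean 25.5, SD 1.04 over sites). Going towards the start, the values in the authors' deposited table were 27.1, 26.6, 25.1, 23.8, 24.7, 26.8, 25.4, 25.3, 25.1 and 24.9 percentage points. The smallest value of this stretch lay inside it and not at an edge. After a gap of 44 bp came 3 minus-strand sites at 99, 88 and 59 bases from the start, with 21.0, 20.8 and 20.8 percentage points in the authors' deposited table. The stretches did not overlap in size: the smallest plus-strand difference exceeded the largest minus-strand one by 2.82 percentage points, and the means differed by 4.62. No CpG was listed on both strands, so strand and distance from the start cannot be told apart. The minus-strand sites also stand just inside the limit of 20, below which no site is listed.

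**Figure D2:**
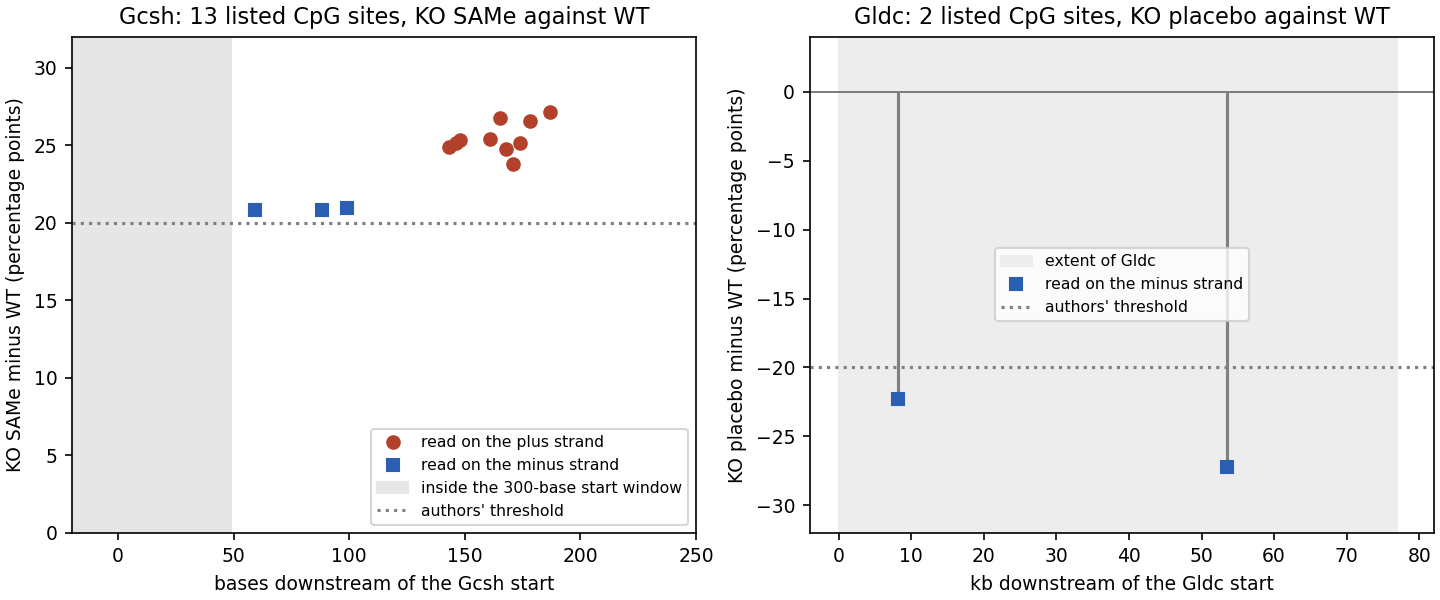
Difference in methylation (y axis, percentage points) at each listed site of Gcsh in KO SAMe against WT (left) and of Gldc in KO placebo against WT (right), by distance downstream of the gene's start (x axis, bases on the left and kb on the right). The 10 plus-strand sites of Gcsh lie between 23.8 and 27.1, the 3 minus-strand sites near 21, and the Gldc sites at −22.3 and −27.2.

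The authors' q-value was listed as 0 at all 13 Gcsh sites, the smallest q above 0 in that table being 7e-15. In the same table q was listed as 0 at 517 of 3054 sites with an absolute difference under 28 (16.9%), and at 21 of the 53 higher sites. Both counts include the 13 Gcsh sites, which make up most of the 21. Read number and size of difference both enter such a value, and the read numbers are not given. It is not stated whether the spread between animals entered the test.

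Gcsh had no listed site in KO placebo against WT, nor in KO SAMe against KO placebo. Of all coding genes, 12.5% had a listed site in the first of these and 0.658% in the second. Higher sites were listed in 0.0777% of coding genes in the first and in 0.384% in the second. A missing site was below a threshold or not covered. At the 26 sites present in all 3 tables, the KO SAMe difference from WT equalled the KO placebo difference plus the SAMe minus placebo difference within 1e-08 percentage points. The same sum limits what could be true of Gcsh if its sites were covered in every group and were left out by size alone. The placebo-treated KO group would then stand between 7.11 and 20 percentage points above WT at the site with the largest gain (27.1), and between 0.798 and 20 above WT at the site with the smallest (20.8). The SAMe minus placebo difference would have the same limits. Under those conditions neither step alone would make up the whole gain at any of the 13 sites, and both would be positive. Coverage in the placebo-treated animals was not given, so this condition was not tested at Gcsh. It did not hold at every listed site. Position 127520004 of Shmt2 (chromosome 10) was listed at −46.1 in KO placebo against WT and in neither other comparison. Differences of 20 or less in both of those could not combine to −46.1, so size alone did not leave it out. The limits given for Gcsh are therefore conditional only.

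In KO SAMe against WT, Gcsh was 1 of 2363 coding genes with a listed site (10.8% of 21887) and 1 of 20 with a higher site (0.0914%), while 10.7% of coding genes had a lower site. It held 24.5% of the 53 higher sites and 13 of the 17 on chromosome 8. The next gene by higher sites was the phosphatase gene Ctdsp1 with 3. When sites within 1 kb were joined, the 53 sites formed 33 runs, of which 27 held a single site and 3 held at least 3. Besides Gcsh these were a run on chromosome 12 (32929979 to 32930161), away from coding genes, and the Ctdsp1 run on chromosome 1 (74395543 to 74395576). The first held 4 sites over 183 bp that averaged 34.3 percentage points, and the Ctdsp1 run 3 sites over 34 bp that averaged 28.5 (authors' deposited table). The Gcsh run was thus the longest by sites and had the smallest mean of the 3. Individual gains larger than the highest Gcsh site were present at 13 other positions of the table. The chromosome 12 run had 3 listed sites in KO placebo against WT as well, whereas the Gcsh and Ctdsp1 runs had none there. Counting runs of either sign, 4 of 3607 held more than 13 sites, the densest having 46.

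**Figure D3:**
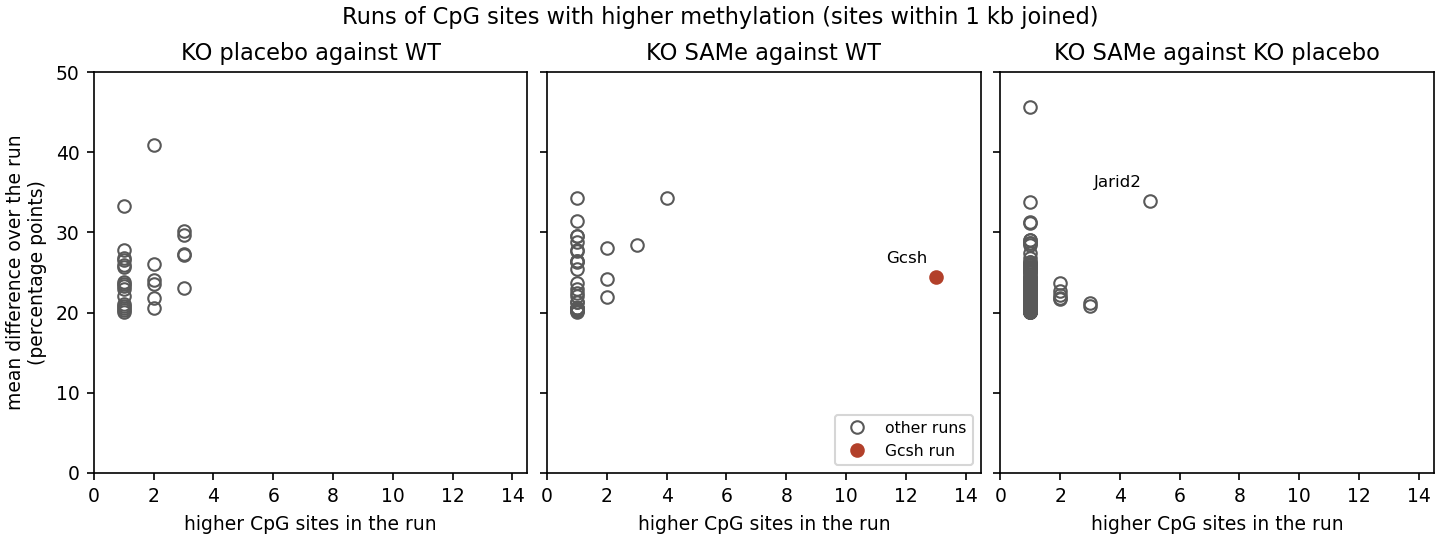
Runs of CpG sites with higher methylation, by number of sites (x axis) and mean difference in percentage points (y axis), with each comparison in its own panel. In KO SAMe against WT the Gcsh run stands at 13 sites and 24.4 percentage points, beside runs of 4 sites or fewer, and the 5-site run of Jarid2, a Polycomb cofactor gene, leads KO SAMe against KO placebo.

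Listed sites just downstream of a gene's start were few in all 3 tables. In KO SAMe against WT, 34 of 17492 coding genes with a RefSeq start had a listed site in the first 250 bases (0.194%). Of these, 33 had lower sites (0.189%), at most 8 in a gene, and the other was Gcsh with its higher sites (0.00572%). In KO placebo against WT, 46 genes had a lower site there (0.263%) and 0 had a higher one. Between the KO groups, 0 genes had a listed site there. The Gcsh entry repeats the run for which the gene was chosen, and the 250-base stretch was set with its position known, so the counts only place the run and nothing is read from them. The number of sites covered near gene starts is not given.

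The nearest listed sites around Gcsh were located in each comparison. Their distances were not set against the spacing of listed sites elsewhere, so they do not show the surroundings to be sparse. The nearest one outside the 2 kb flanks in KO SAMe against WT lay 88973 bp beyond the gene's start, on the upstream side, and was lower by −20.2 percentage points in the authors' deposited table. In KO placebo against WT the nearest lay 218763 bp away at −20.9 in the authors' deposited table. Between the KO groups it lay 5571617 bp away and was higher by 22.7 with SAMe (authors' deposited table). Of all listed sites, 99.4% were lower in KO placebo against WT and 99.0% in KO SAMe against WT, so a lower neighbour is the usual case in both.

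Gldc, the decarboxylase, showed lower methylation in KO placebo liver and had no listed site in KO SAMe against WT. Its 2 sites in the authors' deposited table for KO placebo against WT were both on the minus strand and inside the gene (chromosome 19, 30098441 to 30175441, minus strand, mm10). The larger difference was −27.2 percentage points at position 30121993, 53448 bases downstream of the start (authors' deposited table, q = 6.8e-07). The other was −22.3 at position 30167223, 8218 bases downstream of the start (authors' deposited table, q = 1.11e-06). In this comparison 12.5% of coding genes had a listed site and also 12.5% had a lower one, so a gene with lower sites was common. The sites were 45230 bp apart and formed no run. The same condition, full coverage and absence by size alone, was not tested here either. Under it, SAMe-treated KO liver would lie between −20 and −7.21 percentage points from WT at the first site. At the second it would lie between −20 and −2.26. Sites of Gldc had larger q-values than the Gcsh sites at similar absolute differences, and read numbers were not given for either gene.

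Amt, the aminomethyltransferase, had no listed site in any comparison. It is a short gene of 5398 bp (chromosome 9, 108296905 to 108302302, plus strand, mm10). The nearest listed site lay 37416 bp away inside Dag1, the dystroglycan gene, at −22.4 percentage points in KO placebo against WT (authors' deposited table). Dld, the dehydrogenase shared with other mitochondrial complexes, likewise had none over its 19910 bp (chromosome 12, 31331562 to 31351471, minus strand, mm10). The nearest site there was 15354 bp away inside the laminin gene Lamb1, at −22.2 in KO placebo against WT (authors' deposited table). Listed sites were present in 12.5% of coding genes in KO placebo against WT and in 10.8% in KO SAMe against WT. Having none was therefore the usual case. A gene without a listed site was not shown to be unaltered. In KO SAMe against KO placebo, where 0.658% of coding genes had a listed site, 0.384% a higher and 0.274% a lower one, 0 of the 4 members had any.

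Set side by side, the members with listed sites differed in sign, in the comparison that listed them and in place. Gcsh carried gains next to its start in KO SAMe against WT. Gldc carried 2 losses, 8218 and 53448 bases downstream of its start, in KO placebo against WT. No position was listed in both WT comparisons. Gcsh was chosen for its gains, and 12.5% of coding genes had a lower site in KO placebo against WT. Neither gene had a listed site between the KO groups, so listing in a single WT comparison does not show that these groups differed.

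The enzymes around the complex were examined through a list of 38 genes of glycine, serine and folate metabolism, all of which matched the annotation. In KO placebo against WT, 7 of the 38 had a listed site (18.4%, against 12.5% of all coding genes), in KO SAMe against WT 7 (18.4%, against 10.8%) and in KO SAMe against KO placebo 1 (2.63%, against 0.658%). The list's 18 sites in KO placebo against WT and 11 in KO SAMe against WT were lower, as were 99.4% and 99.0% of all listed sites in these comparisons, so their direction is that of the tables as a whole. Shmt2, the mitochondrial serine hydroxymethyltransferase that makes or uses glycine, had 7 sites within 485 bp in KO placebo against WT, from −46.1 to −38.4 percentage points in the authors' deposited table. In KO SAMe against WT it had 2, at −51.0 and −47.3 in the authors' deposited table. At the same positions KO placebo against WT gave −40.7 and −42.0. The lower count with SAMe does not show a smaller difference, since coverage at the absent positions is not given. The Shmt2 sites lay 2306 to 2790 bases downstream of the start.

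Fpgs, which adds glutamate tails that keep folates in the cell, had 5 sites in KO placebo liver and 4 in KO SAMe liver against WT. Positions 32681620, 32681645 and 32681790 (chromosome 2) lay in the 2 kb flank, outside the gene (32682609 to 32704196). At 32681620 the authors' deposited tables gave −38.6 for KO placebo and −36.3 for KO SAMe. At 32694852 they gave −35.5 for KO placebo and −27.6 for KO SAMe. The other 2 shared positions differed between the KO groups by −1.01 and −0.0059 percentage points (KO SAMe minus KO placebo, by subtraction). Slc25a38, the mitochondrial glycine carrier of red cell precursors, had 1 site at −24.7 in KO placebo and −27.7 in KO SAMe liver against WT (authors' deposited tables). Mthfd1, a cytosolic folate enzyme, had 1 at −21.3 in KO placebo and −26.5 in KO SAMe liver against WT (authors' deposited tables).

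Genes acting on methylated glycines were listed against WT too. Gnmt had a site at −26.6 percentage points in KO placebo and a different one at −35.8 in KO SAMe liver (authors' deposited tables). Counted downstream from the Gnmt start, these lay at −1077 and −1477 bases, so both were upstream of the gene. Sardh and Dmgdh, which strip methyl groups from sarcosine and dimethylglycine, had 1 site each in KO SAMe against WT, at −28.0 for Sardh and −20.9 for Dmgdh in the authors' deposited table. Mthfd1l and the folate carrier gene Slc19a1 were listed in KO placebo against WT, at −23.3 for Mthfd1l and at −21.3 and −22.0 for Slc19a1 in the authors' deposited table. Mthfd2l, a mitochondrial folate dehydrogenase, was the list's member in KO SAMe against KO placebo, 21.9 percentage points higher with SAMe (authors' deposited table, q = 0.0141). The remaining 28 genes of the list had no listed site in any table.

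The lipoyl arm of Gcsh is made by a pathway shared with other complexes, most of which also use Dld, and 18 genes of lipoate synthesis and of those complexes formed the other list. Of these, 3 had a listed site in KO placebo against WT (16.7%, against 12.5% of all coding genes) and 5 in KO SAMe against WT (27.8%, against 10.8%). In KO SAMe against KO placebo 0 of the 18 had one, where only 0.658% of all coding genes did. The 7 sites in KO placebo against WT and the 11 in KO SAMe against WT were lower, the direction of 99.4% and 99.0% of all listed sites in these comparisons. Bckdha, a subunit of the branched-chain keto acid dehydrogenase, had 5 sites in KO placebo against WT, from −43.6 to −30.5 percentage points, and 6 in KO SAMe against WT, from −43.8 to −26.6 (authors' deposited tables). The KO placebo site at −30.5 lay in the 2 kb flank, outside the gene. The 4 shared positions of Bckdha, 25645127 to 25645159 on chromosome 7, differed between the KO groups by −5.68 to 4.05 by subtraction, which is small beside the loss against WT.

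Dbt, the lipoylated core of the same complex, had 1 site at −25.0 in KO placebo and −32.5 in KO SAMe liver against WT (authors' deposited tables). Its partner subunit gene Bckdhb had 1 at −26.3 in KO SAMe against WT, and so did Mcat, a mitochondrial fatty acid synthesis gene upstream of lipoate, at −24.2 (authors' deposited table). Pdhx, a component of the pyruvate dehydrogenase complex, had 1 site at −23.8 in KO placebo against WT and 2 at −26.6 and −27.3 in KO SAMe against WT (authors' deposited tables). The other 13 genes had no listed site.

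The measured sites of both lists lay farther from gene starts than the Gcsh run did. None of the 30 listed entries of the glycine, serine and folate list lay within 250 bases of a RefSeq start, the closest being 677 bases away. In the lipoate list the closest of 15 entries with a start was 13602 bases away. The entries of Dbt and Mcat had no RefSeq start and were not measured, so closer sites in the list are possible. The Dbt site at 116514296 (chromosome 3) lay much nearer than that to an edge of its gene, at 116513070. Listed entries near a start were few in the tables as a whole. Of all 12334 entries, 145 fell inside a RefSeq start window, which reaches less far downstream than 250 bases. The absence of such entries therefore does not set either list apart. No test of the distances from gene starts was made, because Gcsh was chosen for its sites.

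**Figure D4:**
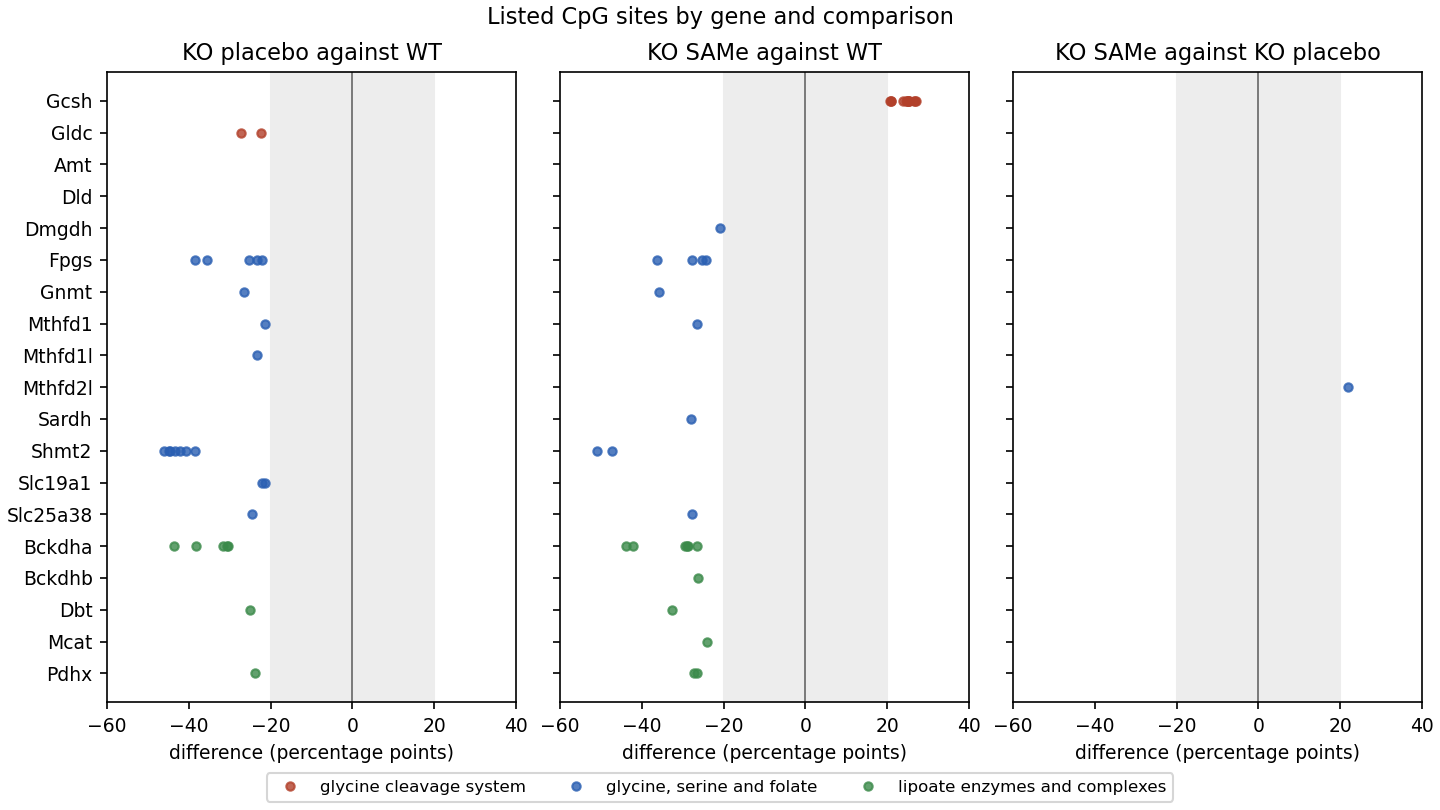
Every listed CpG site of the glycine cleavage system and of both pathway lists by its difference (x axis, percentage points), with genes down the y axis and a panel for each comparison; genes of the lists without a listed site are left out and the grey band spans differences under 20, which are not listed. Gcsh sites lie to the right at 20.8 to 27.1 in KO SAMe against WT, and the other sites of the WT panels lie to the left, the side of 99.4% (KO placebo) and 99.0% (KO SAMe) of all sites listed against WT.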

How the data were processed

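Liver DNA methylation was compared between 6 KO placebo, 5 KO SAMe and 8 WT mice. Per the submitters' processing notes, the tools were CASAVA 1.8.2, Trim Galore, Bismark and methylKit and the build was mm10; order and settings are not given in the sources used here. Each line of the 3 deposited tables held 1 CpG position and strand, with the p-value and q-value given by the authors and a methylation difference in percentage points, per the file headers. No value per animal was given, so no test was run here, and the p-values and q-values are the authors' own.

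Positions were assigned with Python 3.11.15 and pandas 2.3.3 to 21887 protein-coding RefSeq genes (GRCm38.p6) extended by 2 kb at both ends. Gene starts and sequences came from RefSeq start windows. All 145 listed entries inside such a window fell on the cytosine of a CpG on their stated strand. Assignment was tested on simulated data. The members and gene lists were chosen with earlier results of these data known. Named genes were the 4 members, every list gene with a listed site, and genes of runs with at least 3 higher sites in KO SAMe against WT; Jarid2, Dag1 and Lamb1 were named after their values were seen. An item of the planned glycine, serine and folate list is not reported here, and its counts leave it out.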

Additional observations from a re-analysis of the deposited data

How the results depend on the processing

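The settings tried were the distance from the gene (none, 5 kb or 10 kb in place of 2 kb for the members; none or 5 kb for the lists), a q-value under 0.01 or 0.001, the median in place of the mean (25.1 for the Gcsh run), averaging of strands, and joining of runs within 200 bp or 5 kb. Of 93 repeats, 62 began from a count of 0 and stayed at 0, 30 of them under stricter limits that cannot raise a 0. Averaging strands could change nothing, since no CpG was listed on both, nor could the q limits at Gcsh, where q was listed as 0. Raising the limit on the difference to 25 percentage points left 7 of 13 Gcsh sites in KO SAMe against WT and 1 of 2 Gldc sites in KO placebo against WT. The remaining repeats kept the count within 1.5 times or the mean within 1 SD over sites. No paired analysis was possible because the tables hold no value per animal, and for the same reason no animal could be left out. Read depth is unknown.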
